A study of Rattus norvegicus with 6 samples.

Results

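The genes described here encode the proteasome, taken as every probe whose transcript accession maps to a rat gene symbol starting Psma, Psmb, Psmc, Psmd, Psme, Psmf or Psmg, without the inducible subunits Psmb8, Psmb9 and Psmb10. The arrays held 35 such probes for 31 genes, of 41012 gene probes in all, and all 31 were above background and tested among 21847 genes and unnamed probes. Of the 31, 29 encode parts of the proteasome or its assembly and activation, and the other 2, Psmc3ip and Psme3ip1, encode proteins named for binding a subunit. Another 20 symbols that the rule takes matched no probe and were not analysed here, among them the catalytic subunit Psmb5, the ATPase Psmc6, 5 lid subunits, the inhibitor Psmf1 and the core assembly chaperones Psmg1 to Psmg4.

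The cells were rat bone marrow cells of males aged 8 weeks, grown in vitro under osteogenic conditions, which favour bone formation, and sampled on day 10. Controls were grown without ultrasound, and the other group received pulsed ultrasound of low intensity (LIPUS), which is used as a physical stimulus on healing bone. Each group had 3 samples, and 100 ng of total RNA from each was labelled with Cy3 and put on 1 single-colour array. The labels give no strain, ultrasound dose or time of exposure, and they do not say whether replicates came from separate animals or cultures, so p-values measure the spread between these samples, which may be technical.

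The proteasome is the main protease for proteins marked with ubiquitin. Its core particle is a barrel of outer alpha rings, which form a gate, and inner beta rings, which hold the catalytic sites. The regulatory particle caps the barrel: a base with ATPases unfolds the substrate and a lid removes ubiquitin, while other caps, the activators, open the gate without ATP. In bone marrow cultures the proteasome is known for degrading regulators of osteoblast maturation and for supplying peptides for antigen presentation.

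The promoters of 28 of the 31 genes were found in a RefSeq table of the rat genome build GRCr8. The 250 bases before the annotated start were searched on both strands for TGACNNNGC, the core of the antioxidant response element through which stress factors are known to drive proteasome genes, and for CCAAT, a box common in housekeeping promoters. A few are printed 5′ to 3′ on the gene's strand, with the letters of either motif in capitals: those of the members that passed the test, Psmd3 and Psmc3ip, and 2 with the response element core, Psmd1 and Psmd9. The Psmd3 promoter lies at chr10:84139688-84139937 on the plus strand and the Psmc3ip promoter at chr10:86527667-86527916 on the minus strand. That of Psmd1 is chr9:94157721-94157970, plus strand, and that of Psmd9 is chr12:39018265-39018514, minus strand.
Psmd3: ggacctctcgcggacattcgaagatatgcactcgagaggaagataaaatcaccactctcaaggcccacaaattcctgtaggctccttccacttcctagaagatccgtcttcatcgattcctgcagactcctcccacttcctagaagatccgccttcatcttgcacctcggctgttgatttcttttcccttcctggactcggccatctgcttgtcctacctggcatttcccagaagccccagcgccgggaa
Psmc3ip: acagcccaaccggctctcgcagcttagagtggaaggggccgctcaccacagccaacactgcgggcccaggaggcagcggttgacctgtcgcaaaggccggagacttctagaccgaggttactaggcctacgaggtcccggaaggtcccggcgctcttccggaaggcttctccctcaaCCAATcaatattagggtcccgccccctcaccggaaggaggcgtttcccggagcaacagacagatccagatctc
Psmd1: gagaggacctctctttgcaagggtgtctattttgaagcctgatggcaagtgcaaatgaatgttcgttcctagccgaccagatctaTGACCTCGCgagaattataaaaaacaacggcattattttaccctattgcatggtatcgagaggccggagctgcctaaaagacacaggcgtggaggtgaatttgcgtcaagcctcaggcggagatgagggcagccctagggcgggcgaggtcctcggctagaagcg
Psmd9: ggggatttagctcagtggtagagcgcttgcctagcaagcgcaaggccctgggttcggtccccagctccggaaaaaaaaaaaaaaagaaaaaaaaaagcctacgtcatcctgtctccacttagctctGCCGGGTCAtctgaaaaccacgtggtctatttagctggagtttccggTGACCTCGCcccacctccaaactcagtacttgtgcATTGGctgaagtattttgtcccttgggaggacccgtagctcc

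The Psmd3 promoter held neither motif in this window. The Psmc3ip promoter held 1 CCAAT starting 73 bases before the gene's start. The Psmd1 promoter held 1 response element core, TGACCTCGC, from base 165 before the start. Psmd9, the only member with 2 cores, held the same letters 77 bases before the start and TGACNNNGC on the other strand from base 124, and its CCAAT lay on the other strand from base 42; no motifs overlapped in the printed promoters. Over the 28 promoters, 5 held the core (17.9%; Psma3, Psmb2, Psmb6, Psmd1 and Psmd9), against 10.1% of all 33469 promoters of the table. CCAAT was present in 17 of 28 (60.7%), against 34.0% of all promoters. The 5 genes with the core had a median log2 change of −0.09 between LIPUS and control and the 23 without it one of 0.05, with ranges of −0.22 to 0.14 and −0.86 to 0.70. For CCAAT the medians were 0.02 with it and 0.05 without.

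Levels are given as log2 brightness relative to each array's 75th percentile, so a level below 0 lies below that percentile. A change is the LIPUS mean minus the control mean on that scale, with the standard error (SE) of the limma fit. A level can be compared between arrays for a probe, not between probes. On each array 53.5% to 61.9% of probes lay above background, and arrays correlated at 0.964 to 0.986 across genes. Fewer probes were at the scanner limit on the LIPUS arrays (382, 320 and 351) than on the controls (468, 388 and 442). Control 3 stood apart from the other controls in its scan: the grid had a tilt of 0.0522, close to the 0.0549 to 0.0601 of the LIPUS arrays, where control 1 and control 2 had 0.0925 and 0.0943. The labels name no slide or batch, so this is called the scan tilt group, and changes against control 3 alone are given beside the main ones.

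Few proteasome genes passed the test between LIPUS and control, and their changes were mostly small. Of the 31 members, 1 was called higher (Psmd3) and 1 lower (Psmc3ip) at an adjusted p under 0.05, which is 6.45% of members, where 6.63% of all genes tested were called (2.89% higher and 3.74% lower). Without the 2 interacting proteins it was 1 of 29 genes, or 3.45%. The groups did not overlap for 7 of 31 members (22.6%), against 27.2% of all genes tested. An unadjusted limma p under 0.05 was found for 3 of 31 members, where 22.1% of all genes tested had one. That 22.1% is the share to set beside later counts at this threshold in the main fit. The members' share of calls was near the background share, so the counts say nothing particular about the proteasome. The median change was 0.04 over the members and 0.03 over all genes tested. For 23 of 31 members (74.2%) the 95% interval of the change lay within 1.5-fold either way, which held for 30.0% of all genes tested; the median SE was 0.17 for the members and 0.19 for all. For these 23 genes a change larger than 1.5-fold lay outside the interval, which does not show that their levels were equal. Among them Psmd2, Psmc5 and Psmd1 had spots near the scanner limit, where differences can be compressed. A second Psmd2 probe, not at the limit, changed by 0.57.

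**Figure D1:**
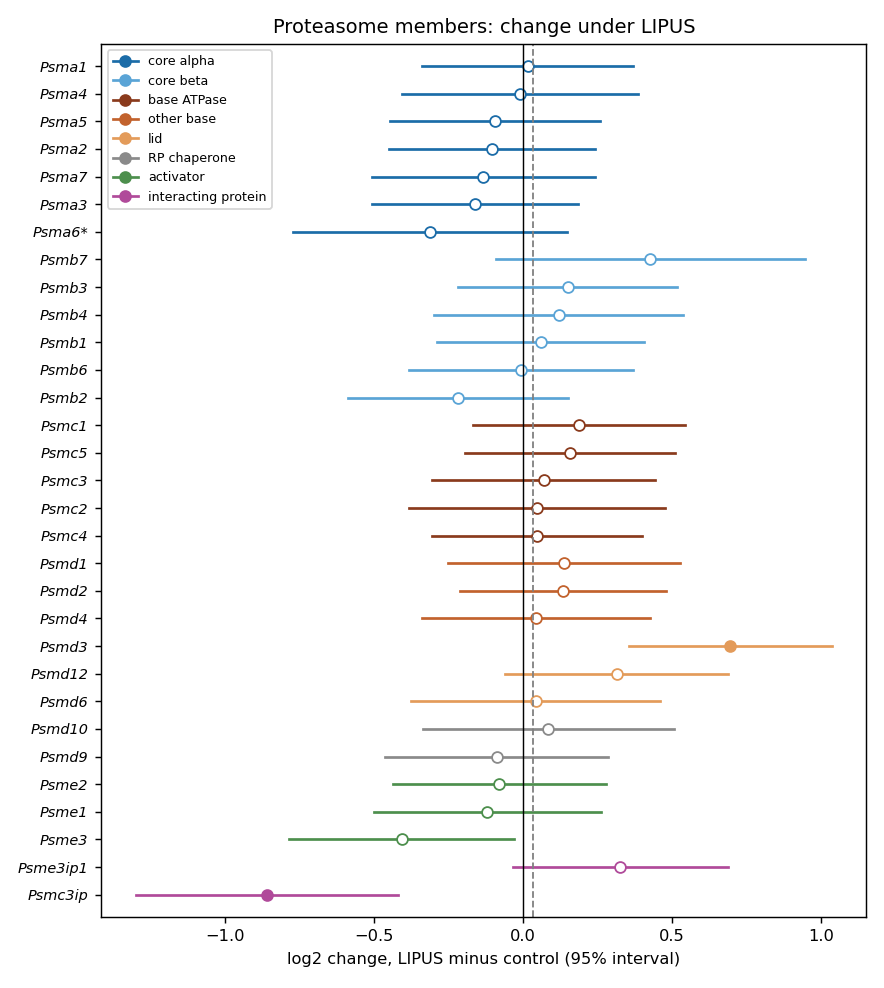
Log2 change, LIPUS minus control, of each of the 31 members with its 95% interval (3 arrays per group), grouped by subcomplex; filled points passed an adjusted p under 0.05, the dashed line is the median of all genes tested (0.03), and the asterisk marks Psma6, taken from the deposited value table. Psmd3 (0.70) and Psmc3ip (−0.86) are the filled points, and every other interval except that of Psme3 crosses 0.

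The lid held the only proteasome subunit that passed the test. Psmd3 (NM_001008281), a scaffold subunit of the lid, read 1.37, 1.31 and 1.37 in the controls, and its LIPUS values were 2.03, 2.14 and 1.97. All LIPUS arrays lay above all controls, and the controls lay close together. Psmd3 was 1.62-fold higher in LIPUS (log2 change 0.70 ± 0.15, SE; 95% interval 0.36 to 1.04; limma adjusted p = 0.0257), and 0.67 higher against control 3 alone. In bulk RNA, more cells of a type and more RNA per cell cannot be told apart, for this and every later result. The call was lost when any 1 array other than control 3 was left out, with limma adjusted p values of 0.0843 and 0.0814 without control 1 or 2 and 0.0865, 0.103 and 0.07 without LIPUS 1, 2 or 3, although the change stayed between 0.65 and 0.73. In the authors' value table it was 0.71 (adjusted p = 0.0761), with the scan tilt group as a block 0.67 (0.143), and under spike-in scaling 0.36 (0.288).

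The other measured lid subunits did not pass. Psmd12, also a scaffold subunit of the lid, read 3.37, 3.12 and 3.39 in control and 3.74, 3.45 and 3.63 in LIPUS. Its groups did not overlap, but the gap between the highest control and the lowest LIPUS array was narrow (change 0.31 ± 0.17, SE; limma adjusted p = 0.307). Psmd6, also of the lid, read 1.59, 1.46 and 1.43 against 1.20, 1.66 and 1.75, so LIPUS arrays held both its lowest and its highest value (0.04 ± 0.19, adjusted p = 0.921).

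**Figure D2:**
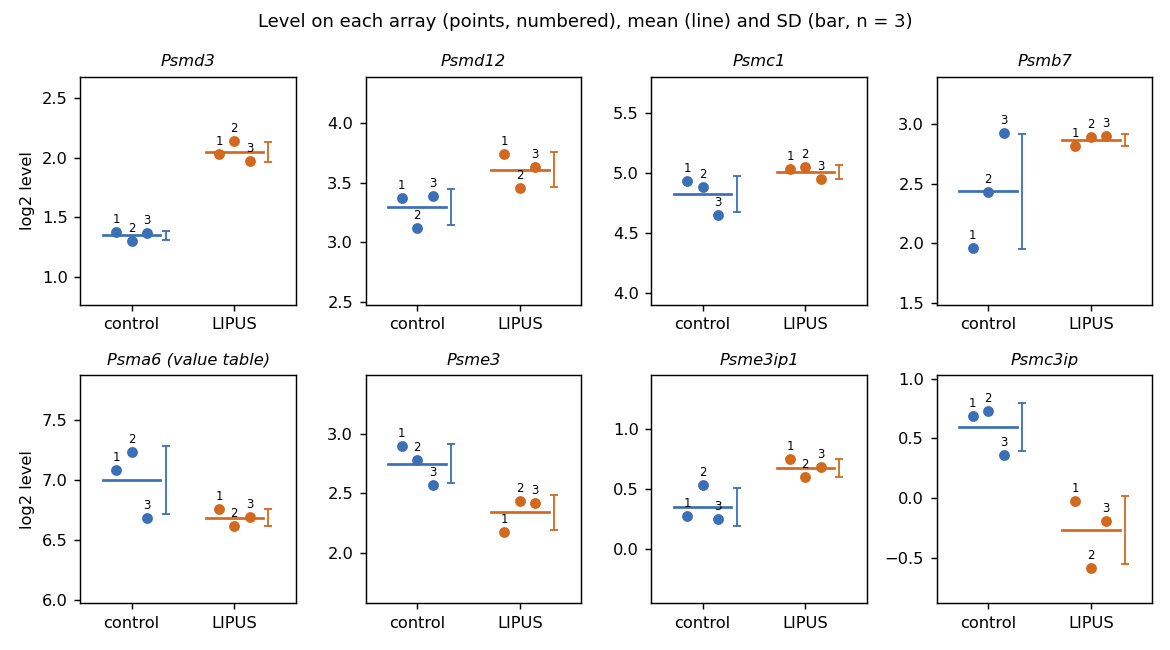
Log2 level on each array (numbered points), with the group mean (line) and SD (bar, n = 3), for 8 members: the called Psmd3 and Psmc3ip, and the members with the largest differences elsewhere; each panel has its own axis of equal span. In Psmd3 and Psmc3ip the groups are apart, while in Psmb7 control 3 (2.92) lies with the LIPUS arrays and in Psma6 control 3 (6.68) does.

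In the base, 0 of 5 ATPases and 0 of 3 other subunits were called by limma. None had an unadjusted p under 0.05 on its brightest probe. The ATPases form the ring that unfolds substrates and pushes them into the core. Psmc1 (NM_057123), one of the ATPases whose tail opens the gate of the core, had the largest change: it read 4.93, 4.88 and 4.65 in control and 5.03, 5.05 and 4.94 in LIPUS. The highest control all but met the lowest LIPUS array (0.19 ± 0.16, SE; limma adjusted p = 0.527). The changes were 0.16 in Psmc5, 0.07 in Psmc3, 0.05 in Psmc2 and 0.05 in Psmc4, and the groups of all 4 overlapped. Psmc2 had the widest spread among the controls, at 4.80, 5.04 and 4.40. The SE of the 5 ATPase changes was 0.16 to 0.19, and every upper 95% bound was at most 0.54.

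The base subunits that are no ATPases bind ubiquitin or its carriers. Psmd1, a large scaffold, read 5.80, 5.56 and 5.30 in control and 5.68, 5.69 and 5.71 in LIPUS, so the LIPUS arrays lay inside the range of the controls (0.14 ± 0.17, SE; limma adjusted p = 0.687). Psmd2, which docks shuttle proteins, had a change of 0.14, and Psmd4, a ubiquitin receptor, one of 0.04. Some of these spots were close to the scanner's upper limit: the highest array reached 87.1% of it for Psmd2, 87% for Psmc5 and 78.7% for Psmd1, with up to 30%, 28% and 11% of the pixels at the limit. A second Psmd2 probe, not at the limit on any array, read 3.43, 3.30 and 3.89 in control and 4.19, 4.08 and 4.07 in LIPUS, a change of 0.57 that did not pass either (adjusted p = 0.11). On that probe control 3 lay between the other controls and the LIPUS arrays. The second probes of Psmc4 and Psmd1 gave changes of 0.11 and 0.05.

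In the alpha rings, which form the outer faces and the gate of the core, 0 of 7 genes were called by limma, and none had an unadjusted p under 0.05. Psma6 (NM_017283) was at the scanner limit on 5 of 6 arrays, so its values come from the authors' value table: 7.09, 7.23 and 6.68 in control and 6.76, 6.61 and 6.69 in LIPUS. Control 1 and control 2 were high, and control 3 lay among the LIPUS arrays. The change was −0.31 ± 0.19 (SE; adjusted p = 0.399), and 0.01 against control 3 alone. Its second probe, which was not saturated, gave −0.11. Psma1 had the highest change of the alpha subunits, 0.02 ± 0.16, with 4.40, 4.38 and 4.16 in control and 4.38, 4.37 and 4.25 in LIPUS. These values were alike apart from a low control 3. Psma3 had a change of −0.16 with groups that just failed to overlap (lowest control 4.53, highest LIPUS array 4.52). The changes were −0.13 in Psma7, −0.10 in Psma2, −0.09 in Psma5 and −0.01 in Psma4, with overlapping groups. Psma4 had a few pixels at the limit (up to 4%) on 1 array.

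The beta rings carry the catalytic sites. Of 6 measured beta genes 0 were called by limma, with 0 at an unadjusted p under 0.05, and the groups overlapped in all 6. Psmb7 (NM_053532), the catalytic subunit with trypsin-like activity, had the largest change of the beta genes and the largest SE of all members: it read 1.96, 2.43 and 2.92 in control and 2.81, 2.89 and 2.90 in LIPUS. The controls were scattered while the LIPUS arrays lay together, and control 3 was the highest of all 6 arrays. The change was 0.43 ± 0.23 (SE; limma adjusted p = 0.317) over all controls and −0.06 against control 3. Psmb6, the catalytic subunit with caspase-like activity, read 3.25, 3.10 and 2.84 in control and 3.10, 3.03 and 3.05 in LIPUS, a change of −0.01 ± 0.17. Its LIPUS arrays lay between the highest and the lowest control. Psmb2, a structural subunit, had the lowest change of the beta genes at −0.22 ± 0.16 (adjusted p = 0.47), with 5.39, 5.39 and 5.11 in control and 5.18, 5.09 and 4.97 in LIPUS. The structural subunits Psmb3, Psmb4 and Psmb1 had changes of 0.15, 0.12 and 0.06.

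The 2 measured chaperones that help assemble the base did not pass. Psmd9 read 3.82, 3.89 and 3.49 in control and 3.63, 3.63 and 3.68 in LIPUS (−0.09 ± 0.17, SE; limma adjusted p = 0.8). Psmd10, also known as the oncoprotein gankyrin, read 1.72, 1.51 and 1.74 against 2.00, 1.43 and 1.79 (0.08 ± 0.19; adjusted p = 0.832). The groups of both overlapped.

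Of the 3 measured activators 0 were called by limma, and 1, Psme3, had an unadjusted p under 0.05. Psme3 (NM_001011894) encodes the nuclear activator that promotes breakdown of certain proteins without ubiquitin. It read 2.89, 2.78 and 2.57 in control and 2.18, 2.43 and 2.42 in LIPUS. All LIPUS arrays lay below all controls, with control 3 the nearest. The change was −0.41 ± 0.17 (SE; adjusted p = 0.193) and −0.23 against control 3. With arrays scaled to the 3 spike-in probes it was −0.74 and passed (limma adjusted p = 0.0316). That scaling moved the median change of all genes from 0.03 to −0.30 and called 3087 genes lower. Psme1 and Psme2, whose products form the interferon-inducible activator, had changes of −0.12 and −0.08 with overlapping groups.

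Of the 2 interacting proteins 1 was called. Psmc3ip (NM_134458) is known as a cofactor of meiotic recombination and is not part of the proteasome. It read 0.69, 0.73 and 0.36 in control and −0.02, −0.58 and −0.19 in LIPUS, and all LIPUS arrays lay below all controls. Psmc3ip was 1.81-fold lower in LIPUS (log2 change −0.86 ± 0.20, SE; 95% interval −1.30 to −0.42; limma adjusted p = 0.0315), and −0.63 against control 3. It lost the call without control 1, control 2, LIPUS 2 or LIPUS 3 (limma adjusted p = 0.113, 0.103, 0.113 and 0.0809). It was also not called in the authors' value table (−0.45, adjusted p = 0.371) or with the scan tilt group as a block (−0.63, 0.281). Psme3ip1, whose product binds the nuclear activator, read 0.27, 0.53 and 0.25 in control and 0.75, 0.60 and 0.69 in LIPUS. Its groups did not overlap, and it did not pass (0.33 ± 0.16; adjusted p = 0.271).

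Set side by side, the regulatory particle, the core and the activators differed in where their small changes lay. All 11 regulatory particle genes had a change above 0, where 54.0% of all genes tested did, but the number was 7 of 11 when arrays were centred on their medians and 1 of 11 under spike-in scaling, which moved the median change of all genes from 0.03 to −0.30. Relative to the median of all genes, all 11 lay above it under each of these scalings. Each of them shifts all genes of an array alike, so this count could not change between them. The number above that median was 6 of 11 with no filter on dim probes, 7 with array weights and 8 to 10 with 1 array left out. Of 13 core genes 5 had a change above 0. That number was 3 without control 3, 7 in the authors' value table and under quantile normalization, 9 with the scan tilt group as a fixed block and 1 under spike-in scaling. All 3 activators were below 0 in the main fit and in each of the 22 alternatives. Each has 1 probe, and the dim-probe filters, the probe choices and the replicate block leave their changes as they were. Spike-in scaling lowers the median of all genes, so the 22 are not separate support. The median changes were 0.14, −0.01 and −0.12 for the regulatory particle, the core and the activators. The regulatory particle's median exceeded the core's by 0.14, and by 0.10 to 0.21 over the 22 alternatives. Median centring, spike-in scaling, the other dim-probe filters and the replicate block could not move this offset from 0.14. The fixed block and the fit within 1 tilt group share their estimate (0.21). The range is therefore not made of 22 separate checks. No p is attached to these medians, since subunits are not replicates.

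The medians behind this offset can be given by array. With every gene centred on its mean over the 6 arrays, the median of the 11 regulatory particle genes minus that of the 12 core genes in the spot tables came to −0.06, −0.11 and −0.13 in the controls, while LIPUS arrays gave 0.11, 0.07 and 0.12. The groups did not overlap in this difference, in which any scaling common to all genes of an array cancels. Because of the centring, values above 0 in one group force values below 0 in the other, so they restate the offset and are no further support for it.

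**Figure D3:**
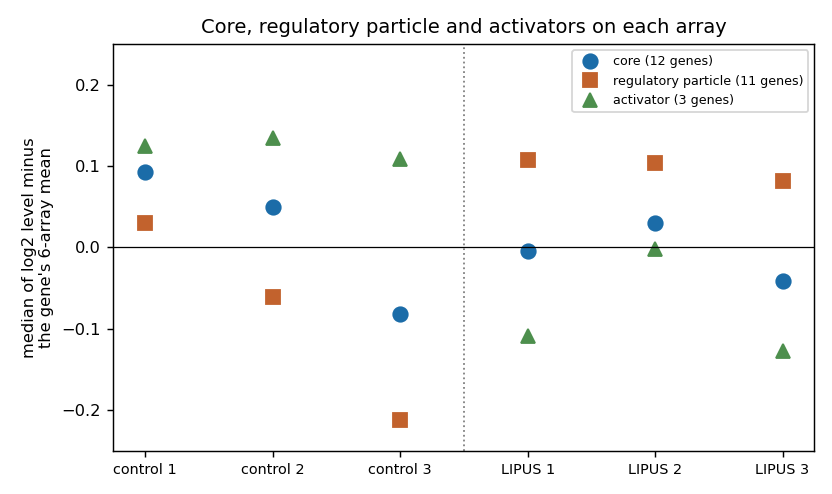
Median over the core (12 genes, Psma6 left out), the regulatory particle (11) and the activators (3) of log2 level minus the gene's own mean over the 6 arrays, for each array. The regulatory particle lies below the core on the 3 control arrays and above it on the 3 LIPUS arrays, and control 3 is low for both.

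Control 3 was the lowest control for 22 of 31 members (71%), against 45.7% of all genes tested. Against control 3 alone, within its scan tilt group, 22 of 31 members were higher in LIPUS (71%), where 58.0% of all genes were, and the median change was 0.15 for the members and 0.07 for all genes. The medians against control 3 were 0.23 for the regulatory particle, 0.03 for the core and −0.22 for the activators. Their order was that of the main comparison, which holds the same LIPUS arrays and control 3, so it is no separate support. Large shifts were seen in Psma6, at −0.31 against all controls and 0.01 against control 3, in Psmb4, at 0.12 and 0.44, in Psmc2, at 0.05 and 0.39, and in Psmb7, at 0.43 and −0.06. Fits with scan tilt as a block are given below with the alternatives. The part of scan tilt in these differences was not otherwise tested.

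**Figure D4:**
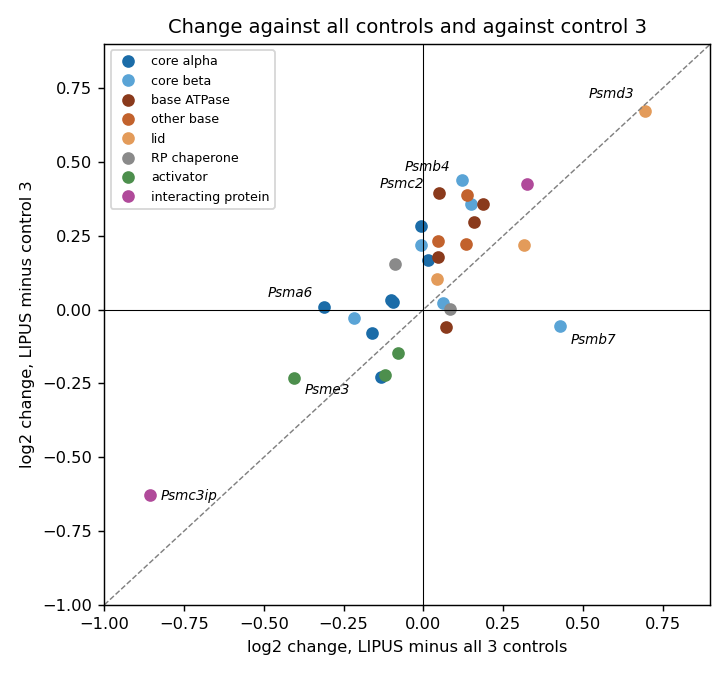
Log2 change of each member against all 3 controls (x axis) and against control 3 alone (y axis), coloured by subcomplex; the dashed diagonal marks equal values. Psmd3 and Psmc3ip lie far from 0 on both axes, Psmb7 drops from 0.43 to −0.06, and most core and regulatory particle genes lie above the diagonal.

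The inducible subunits, which replace constitutive catalytic subunits to form the immunoproteasome, are not among the members and were set beside them. Psmb9, the counterpart of Psmb6, read 3.29, 3.49 and 3.13 in control and 1.95, 1.81 and 2.20 in LIPUS. Its groups were far apart, and it fell by 1.31 on the log2 scale (SE 0.18; limma adjusted p = 0.00298; −1.14 against control 3). It was called in 19 of the 22 alternatives. The exceptions were the authors' value table (−0.88, limma adjusted p = 0.0769), the scan tilt group as a block (0.0682) and the arrays of 1 tilt group alone, with only 1 control. Psmb8 had a change of −0.59 (limma adjusted p = 0.104) and Psmb10 one of −0.50 (0.149), with groups that did not overlap. Without control 3 Psmb10 passed (−0.65, limma adjusted p = 0.049). Under spike-in scaling, which called 3087 genes lower, Psmb8 and Psmb10 both passed (limma adjusted p = 0.00957 and 0.0221). The constitutive partner Psmb6 did not share the change of Psmb9. Psmb9 minus Psmb6 within each array came to 0.03, 0.39 and 0.29 for controls and to −1.15, −1.22 and −0.84 for LIPUS, of which only the change of −1.31 has a meaning (p = 0.1 in a two-sided exact permutation test, the lowest that 3 arrays against 3 can give; 0.1 after adjustment over 2 pairs). In the authors' value table that change was −0.78. For Psmb10 minus Psmb7 the change was −0.93 (p = 0.1 by the same exact test), but −0.15 against control 3.

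**Figure D5:**
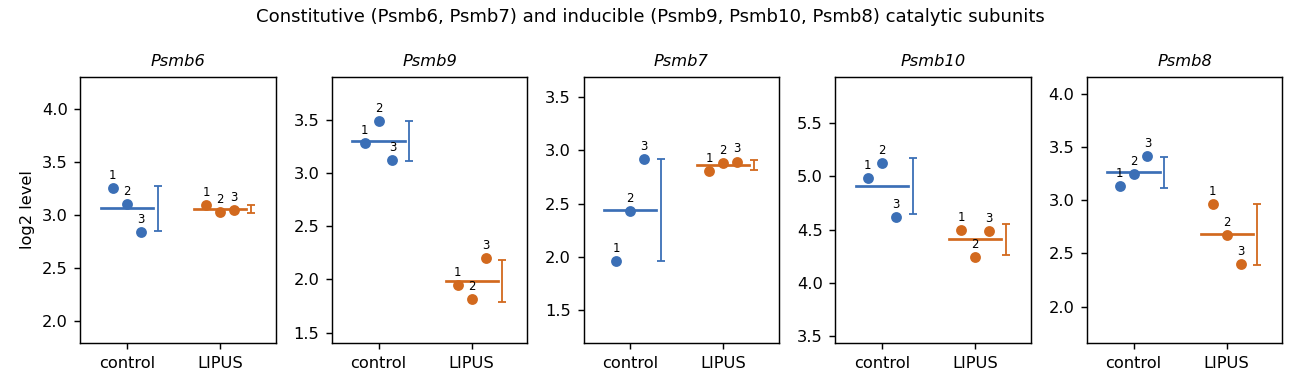
Log2 level on each array (numbered points), group mean (line) and SD (bar, n = 3) of the constitutive catalytic subunits Psmb6 and Psmb7 and the inducible Psmb9, Psmb10 and Psmb8. Psmb9 is lower on all LIPUS arrays, at 1.81 to 2.20 against 3.13 to 3.49 in control, while Psmb6 lies at 2.84 to 3.25 over both groups.

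Of the wider pathway, 23 of 36 listed genes were measured, and limma called 1 higher and 1 lower (8.7% of those measured, near the 6.63% of all genes tested). Their median change was 0.06. The one called lower was Psmb9. The one called higher was Uba1, the main enzyme that activates ubiquitin, which read 1.13, 1.43 and 1.96 in control and 2.53, 2.38 and 2.53 in LIPUS. The controls were spread, with control 3 nearest to LIPUS. Uba1 rose by 0.97 ± 0.22 (SE; limma adjusted p = 0.0283), and by 0.52 against control 3. It was called in 9 of 22 alternatives, and leaving out control 1 (limma adjusted p = 0.102), control 2 (0.0905), LIPUS 1 (0.0914), LIPUS 2 (0.0728) or LIPUS 3 (0.0904) ended the call. Uba1 was the only 1 of 5 measured genes of ubiquitin and its activation that was called. Of the shuttles and the segregase that deliver substrates 0 of 10 were called, and 1, the ubiquitin ligase Stub1, had an unadjusted p under 0.05 (0.40, adjusted p = 0.21). The proteasomal ubiquitin receptor Adrm1 had a change of 0.47 (adjusted p = 0.164). Nfe2l2, a stress factor that acts through the antioxidant response element, had one of −0.23 (adjusted p = 0.421).

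Marker transcripts of several cell types moved with LIPUS, and cell numbers were not measured. For comparison, 2.89% of all genes tested were called higher and 3.74% lower. Of 6 measured osteoblast markers 3 rose (Bglap, Spp1 and Dmp1) and 0 fell, with a mean level per array of 2.47 to 2.61 in control samples, against 3.09 to 3.35 under LIPUS. Of 8 macrophage markers 6 fell, with means of 3.43 to 3.58 against 1.91 to 2.20. C1qb (−0.26, limma adjusted p = 0.39) and Lyz2 (0.11, limma adjusted p = 0.748) were not called. Both measured endothelial markers (of 6 listed) fell, with means of 0.64 to 0.90 against −0.91 to −0.55, and 1 of 2 measured markers of antigen-presenting cells (of 4 listed) fell, with means of 1.28 to 1.45 against 0.64 to 1.01. The means are over markers read from the spot tables. They leave out Bglap, Spp1 and Cd68, which were called, and C1qb and Lyz2, which were not. Pecam1 and RT1-Ba were above background on no array and Ciita on 2 of 6, too few to be tested. The osteoblast markers Runx2 and Col1a1 and the endothelial markers Cdh5, Tek and Vwf had no probe here. These lists moved with the groups, as Psmd3, Psmc3ip, Psmb9 and Uba1 did, and their part in those differences was not tested.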

How the data were processed

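The deposited spot tables give spot and background brightness as intensity and the share of pixels at the scanner limit as a percent, per the file headers, with no normalization. The value table deposited by the authors holds log2 values with a 75th percentile of 0 in each column and column medians of −2.37 to −2.85; higher values mean higher expression. Undoing the log2 after subtracting the column minimum gave whole numbers (tolerance 0.01) for 98.7% to 98.9% of probes. How it was made is not stated, nor are the scanner and its software.

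From the 45220 spots per array, gene spots were background-corrected with normexp (offset 50), put on the log2 scale, averaged per probe and reduced by each array's 75th percentile. Probes were kept if at least 3 of 6 arrays exceeded a limit set by that array's 153 negative controls (their 95th percentile) (23260 of 41012). The brightest probe stood for each symbol, which came from a RefSeq table of build GRCr8. Members at the scanner limit of 65535 on any array were read from the value table. Groups were compared with limma 3.58.1 (lmFit, eBayes) in R 4.3.3, two-sided, Benjamini-Hochberg adjusted over all 21847 genes and unnamed probes. The script was tested on simulated data. Promoters and plots used Python 3.11.15, pandas 2.3.3 and matplotlib 3.10.9.

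The members and all lists were chosen with earlier results of these data known. Named genes are the called members, those with the largest rise and fall in each subcomplex, and called pathway genes; the rest are given by range or a single value. Psmb6, Psmd12, the second Psmd2 probe, Stub1, Adrm1, Nfe2l2, Psmb8 and Psmb10 fall outside that rule and were chosen after their values were seen. Values of some listed genes are not reported here. The 22 alternatives changed the value source, background correction, scaling, dim-probe filter, probe choice, blocks, array weights or left out 1 array.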

Additional observations from a re-analysis of the deposited data

How the results depend on the processing

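Of 22 alternatives, Psmd3 and Psmc3ip were each called in 11, and neither changed sign in any, though some alternatives leave the changes as they were. Between 0 and 16 uncalled members changed sign, most under spike-in scaling. The main fit called 1449 genes, 2 members and 2 pathway genes. The authors' value table called 805, 0 and 0 by limma. There 4626 genes, 3 members and 5 pathway genes had an unadjusted limma p under 0.05. Background subtraction gave 671, 1 and 1. With no filter it was 655, 0 and 1 (5825 genes and 2 members at an unadjusted limma p under 0.05). Quantile normalization gave 1 member and 1 pathway gene. Spike-in scaling called 3283 genes and ended the call of Psmd3, with medians of −0.29 over all members, −0.34 in the core, −0.20 in the regulatory particle and −0.45 in the activators; of the called genes 5.97% were higher, against 43.6% in the main fit and 32.3% under median centring, which gave a median of −0.18 for the activators. Scan tilt as a fixed block called 282, 0 and 0 (3525 genes, 2 members and 4 pathway genes at an unadjusted limma p under 0.05). As a random block it called 1 member and 1 pathway gene. The tilt group that holds both groups has 1 control, control 3, and the 3 LIPUS arrays. No spread between controls enters that fit, so only its changes are given. The fixed block and the fit within the tilt group give the same changes, which are those against control 3. Their medians were 0.15 for the members, 0.23 for the regulatory particle and −0.22 for the activators. Array weights called 2424 genes, with a core median of −0.086. The causes were not tested.

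Leaving out 1 array gave 642 to 2168 called genes, 0 to 2 members, 1 to 3 pathway genes, and medians of −0.044 to 0.075 for all members, −0.12 to 0.044 for the core, 0.09 to 0.18 for the regulatory particle and −0.21 to −0.0595 for the activators. The lowest medians of all members and of the core came without control 3. With the replicate number as a block 1 member was called (Psmc3ip, limma adjusted p = 0.0453; Psmd3 had 0.057), with 1175 genes in all. Same-numbered arrays did not deviate together (correlations of 0.00, 0.01 and −0.01). The labels do not say whether same-numbered samples belong together, and with 3 arrays per group these correlations cannot settle it.

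Precision is limited by 3 arrays per group. Psma6 was saturated, and Psmd2, Psmc5 and Psmd1 were near the limit, where differences can be compressed. Genes of the proteasome with no probe were not analysed here.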
